A study of Mus musculus with 17 samples.

Results

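The 54 genes described here encode proteins that carry a cell through mitosis: mitotic cyclins and kinases, spindle checkpoint proteins, kinesin motors, kinetochore and cohesion proteins, and the machinery of cytokinesis. They were taken from the table of 45777 genes by their symbols, all 54 were found, and all 54 were among the 22052 genes that passed the filter on low counts. The RNA came from lungs of male, wild-type C57BL/6 mice that were 6 weeks old on arrival, and each irradiated mouse had received 1 fraction of 65 Gy or 75 Gy, aimed at a small field of the left lung. Irradiated lesions were collected after 2 weeks, which the study calls the inflammation stage, or after 6 weeks, its fibrosis stage, beside lungs of mice that had received no radiation. There were 3 libraries of non-irradiated lungs at each time, 3 of 75 Gy-irradiated lungs at each time, 3 of 65 Gy-irradiated lungs at 2 weeks and 2 at 6 weeks.

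Cells enter mitosis when the cyclin-dependent kinase Cdk1, bound to cyclin B, becomes active. The spindle then captures the kinetochores, protein assemblies on the centromeres, and a checkpoint holds the cells in metaphase until every chromosome is attached. The anaphase-promoting complex (APC/C), a ubiquitin ligase, afterwards marks cyclin B and securin for destruction, the sister chromatids part and the cytoplasm divides. Most of these genes are transcribed in G2 and mitosis, and few cells of the healthy adult lung are dividing at a given time.

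Many promoters of such genes hold the cell cycle genes homology region (CHR), a short element to which the DREAM and MuvB complexes bind. Promoters of 300 bases, 250 before and 50 after the gene start, were listed for 44 of the 54 genes in a RefSeq table of GRCm38.p6. The letters TTTGAA or TTCGAA were present on either strand in 35 of these 44 (79.5%), beside 19.2% of all 32851 promoters of the table and 18% of the 15719 tested genes with a promoter that are not among the 54. The CCAAT box, which is often found near the CHR, was present in 30 of 44 (68.2%), beside 37.4% of all promoters. Of the 15719 tested genes with a promoter that are not among the 54, 41.5% held it. The promoters of Cdk1, the cyclins Ccnb1 and Ccnb2, Plk1, Cdc20 and Bub1b are shown because these genes run mitotic entry and the checkpoint. The promoter of the cyclin Ccna2 was not listed. Those of Pttg1 and Kif18a are shown because their levels differed least between irradiated and control lungs at 2 weeks. This last pair was chosen after their values were seen. Each line gives 120 bases before and 30 after the gene start, 5′ to 3′ in the direction of transcription, with the letters of both motifs in capitals. ATTGG is CCAAT read on the other strand, TTCGAA reads the same on both strands, and a CCAAT box can share its last base with a CHR.
Cdk1 (chr10:69352883-69353032, minus strand): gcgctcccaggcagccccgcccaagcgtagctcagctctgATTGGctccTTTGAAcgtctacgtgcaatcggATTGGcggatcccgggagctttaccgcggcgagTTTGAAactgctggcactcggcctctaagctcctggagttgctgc
Ccnb1 (chr13:100786457-100786606, minus strand): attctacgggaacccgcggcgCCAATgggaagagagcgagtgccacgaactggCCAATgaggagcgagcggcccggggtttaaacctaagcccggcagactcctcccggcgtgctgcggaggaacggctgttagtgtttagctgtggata
Ccnb2 (chr9:70421525-70421674, minus strand): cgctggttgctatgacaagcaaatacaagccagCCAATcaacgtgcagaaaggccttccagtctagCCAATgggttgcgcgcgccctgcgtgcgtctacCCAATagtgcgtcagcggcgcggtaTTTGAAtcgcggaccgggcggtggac
Plk1 (chr7:122159315-122159464, plus strand): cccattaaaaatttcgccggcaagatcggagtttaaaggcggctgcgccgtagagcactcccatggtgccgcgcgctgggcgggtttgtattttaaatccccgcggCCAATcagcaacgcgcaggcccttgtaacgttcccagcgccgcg
Cdc20 (chr4:118437314-118437463, minus strand): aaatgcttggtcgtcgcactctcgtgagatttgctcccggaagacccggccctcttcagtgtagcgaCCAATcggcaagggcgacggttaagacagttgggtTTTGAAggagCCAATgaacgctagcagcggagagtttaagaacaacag
Bub1b (chr2:118598091-118598240, plus strand): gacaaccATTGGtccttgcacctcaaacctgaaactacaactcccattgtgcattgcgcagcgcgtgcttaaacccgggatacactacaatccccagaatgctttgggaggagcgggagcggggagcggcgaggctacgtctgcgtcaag
Pttg1 (chr11:43425952-43426101, minus strand): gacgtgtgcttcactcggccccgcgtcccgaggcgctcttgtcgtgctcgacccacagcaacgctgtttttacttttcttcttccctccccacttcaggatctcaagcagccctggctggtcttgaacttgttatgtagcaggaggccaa
Kif18a (chr2:109280618-109280767, plus strand): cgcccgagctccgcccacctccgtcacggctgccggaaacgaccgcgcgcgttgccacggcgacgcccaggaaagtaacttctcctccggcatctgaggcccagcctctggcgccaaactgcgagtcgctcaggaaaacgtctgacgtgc

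The Cdk1 window holds 2 CHR motifs, which begin 71 and 15 bases before the gene start, and 2 CCAAT boxes on the other strand. In Ccnb2 the CHR begins 5 bases after the start, downstream of 3 CCAAT boxes, and in Cdc20 it begins 18 bases before the start. In Ccnb2 a further CHR, 167 bases before the start, lies outside the letters shown, as do the CHR of Plk1, 31 bases after the start, and those of Bub1b, 188 before and 41 after it. The start that the table gives for Pttg1 lies inside the span of the gene rather than at its end, so its window may not be the one in use. Ccnb1 has 2 CCAAT boxes and neither CHR letter sequence in its 300 bases, and the windows of Pttg1 and Kif18a hold neither motif. Those of Melk, Mad2l1, Birc5 and Nuf2 also hold neither motif in their 300 bases. At 2 weeks after 75 Gy these genes were higher by 1.82, 1.10, 1.91 and 1.90 on the log2 scale. A match is a description of the letters only, and 9 of the 44 promoters had no CHR match: Ccnb1, Nek2, Melk, Mad2l1, Birc5, Kif18a, Cenpe, Nuf2 and Pttg1.

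**Figure D1:**
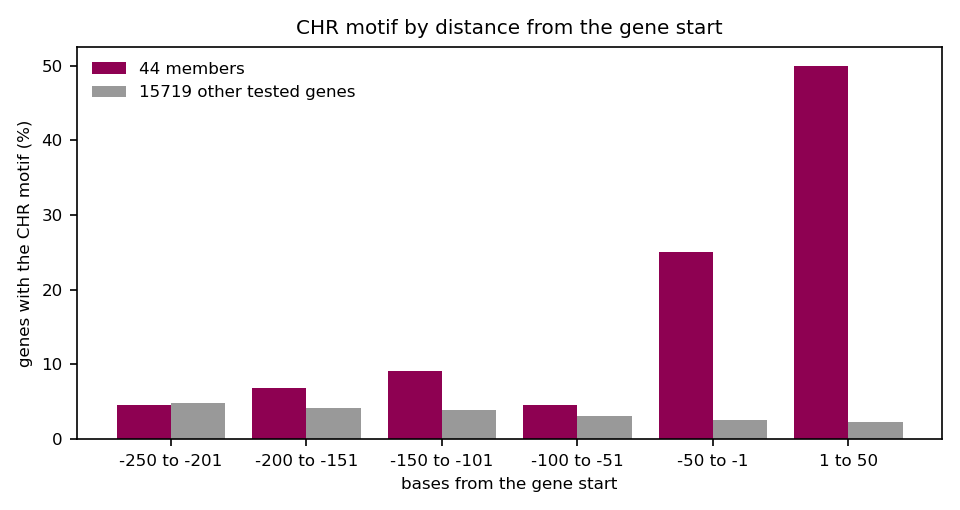
Share of genes (%) whose promoter holds the CHR motif on either strand, by 50-base steps of distance from the gene start, for the 44 listed genes of the set (dark bars) and 15719 other tested genes (grey bars). The motif began within the 50 bases after the start in 50% of the listed genes and 2.28% of the others, and within the 50 bases before it in 25% and 2.61%.

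By position, the motif began between the start and 50 bases downstream in 22 of the 44 genes (50%), against 2.28% of the other tested genes, and in the 50 bases upstream in 11 (25%), against 2.61%. Farther upstream, from 250 to 201 bases before the start, the shares were 4.55% and 4.82%. No test was made of these shares, since the genes were listed for their function in mitosis.

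Between 46764569 and 66797879 reads were counted on genes per library (median 57608149), and levels are given as CPM, the counts of a gene scaled to the size of its library. The alveolar type 2 cell marker Sftpc was at 8370 to 18700 CPM in every library, as in lung tissue, and the heart muscle gene Myh6 at 31 to 363 CPM. Summed over the 54 genes, the controls of 2 weeks held 269, 265 and 283 CPM, the 65 Gy-irradiated lungs 885, 567 and 605, and the 75 Gy-irradiated lungs 636, 593 and 940. At 6 weeks the controls held 306, 257 and 255 CPM, the 65 Gy-irradiated lungs 440 and 383, and the 75 Gy-irradiated lungs 383, 464 and 430. The irradiated libraries thus lay above all controls of their time at both doses, and all 6 of those of 2 weeks lay above the 5 of 6 weeks. In RNA of whole tissue, more dividing cells and more of these transcripts per dividing cell cannot be told apart.

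**Figure D2:**
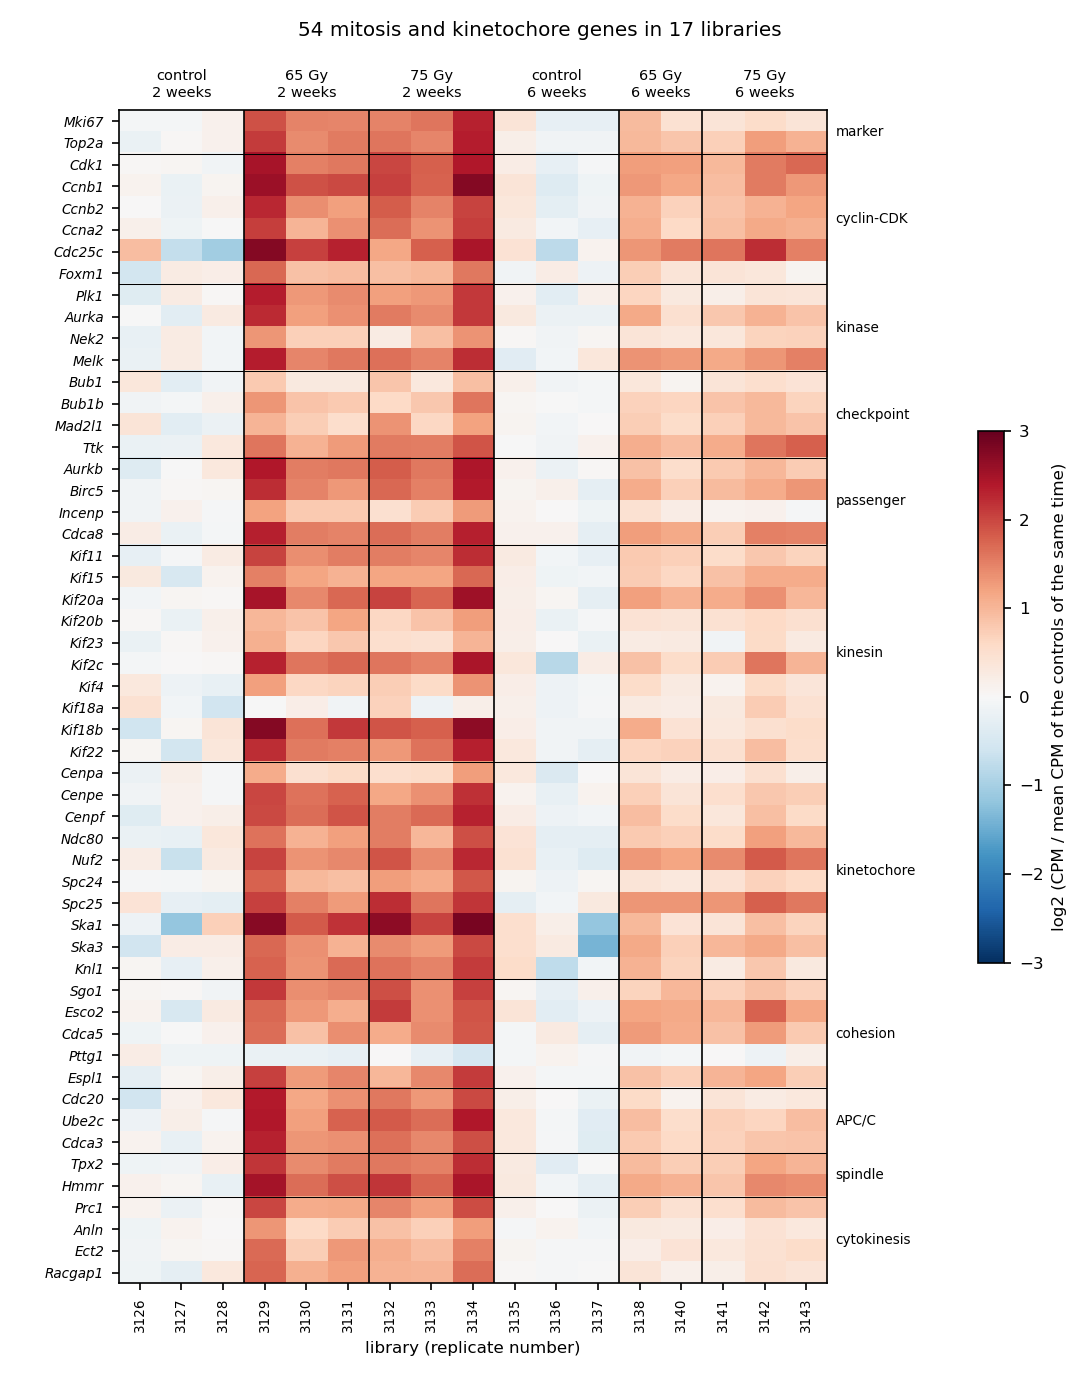
Level of each of the 54 genes in each of the 17 libraries, as log2 of CPM over the mean CPM of the controls of the same time (colour; red higher, blue lower), with genes in rows by role and libraries in columns by group. Nearly all rows are red in the 6 irradiated libraries of 2 weeks and paler in the 5 of 6 weeks, Pttg1 and Kif18a stay pale, and libraries 3129 and 3134 are the darkest columns.

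At 2 weeks, 44 of the 54 genes were upregulated after 75 Gy and 0 were downregulated, nor had any a lower level at an unadjusted p under 0.05. Upregulated means here an adjusted p (edgeR, Benjamini-Hochberg) no higher than 0.05 together with a log2 fold change of 1 or more. Over all genes tested, 5.67% were upregulated and 2.07% downregulated. The median log2 fold change of the 54 was 1.71, a 3.27-fold difference, with a range from -0.22 to 2.54, while the median over all genes tested was 0.001. After 65 Gy, 44 of 54 were also upregulated and 0 downregulated (3.47% of all genes upregulated and 0.88% downregulated), with a median of 1.64 (3.11-fold) and a range from -0.22 to 2.40. The doses share their controls, so the similar values are not independent of each other. All 3 irradiated libraries lay above all 3 controls for 50 of the 54 genes at 75 Gy (15.5% of all genes) and for 51 at 65 Gy (15.9%). The 65 Gy-irradiated libraries lay below all controls for 1 gene, Pttg1 (13.5% of all genes).

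At 6 weeks the same direction was measured at smaller size. After 75 Gy, 18 of 54 genes were upregulated and 0 downregulated (7.28% of all genes upregulated and 3.13% downregulated), with a median log2 fold change of 0.79 (1.73-fold) and a range from 0.02 to 1.80, and 34 passed on the adjusted p alone (18% of all genes). After 65 Gy, 11 were upregulated and 0 downregulated (4.34% of all genes upregulated and 0.943% downregulated), with a median of 0.73 (1.66-fold), and 19 passed on the adjusted p alone (7.66%). The irradiated libraries lay above all controls for 45 genes at 75 Gy (29.4% of all genes) and for 49 at 65 Gy (28.2%, with 2 libraries against 3). At 65 Gy they lay below all controls for Pttg1 (28.1% of all genes). All 18 genes upregulated at 6 weeks after 75 Gy were among the 44 of 2 weeks, as were all 11 after 65 Gy among the 44 of that dose. The count after 65 Gy rested on few libraries: it was 0 without replicate 3138, 6 without 3140, 7 without control 3136 or 3137 and 16 without control 3135. At 75 Gy it lay between 13, without control 3136 or 3137, and 22, without control 3135. Leaving out 3138 or 3140 left only the other library in the 65 Gy group, and the median log2 fold change was then 0.58 or 0.89. The share of all genes called in these fits is not given here, so a loss of calls over all genes cannot be told apart.

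**Figure D3:**
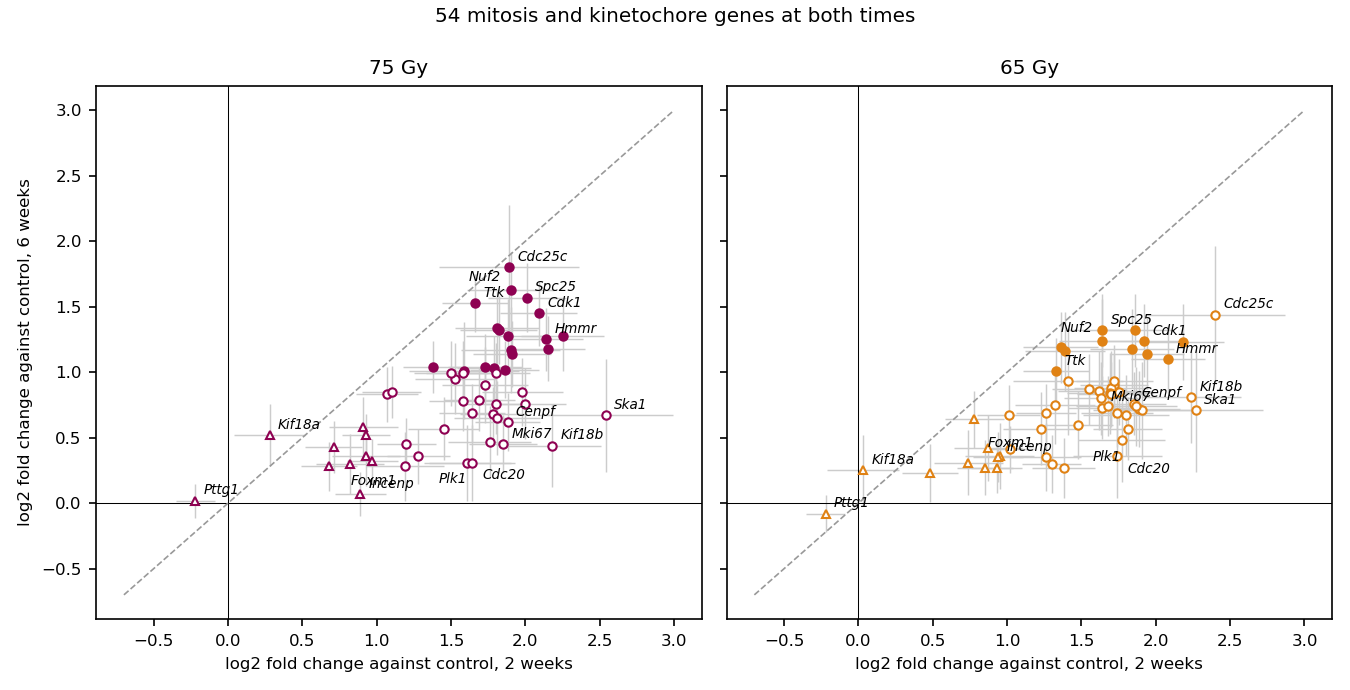
Log2 fold change of each of the 54 genes against the controls of the same time, at 2 weeks (horizontal axis) and 6 weeks (vertical axis), for 75 Gy (left) and 65 Gy (right), with bars of 1 SE. Circles were upregulated at 2 weeks, filled symbols at 6 weeks, triangles not at 2 weeks; most points lie under the dashed line of equal change, and Pttg1 lies near 0 on both axes.

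The proliferation marker Mki67, whose protein Ki-67 coats mitotic chromosomes, stood at 24.2, 24.1 and 27.6 CPM in the controls of 2 weeks. It stood at 95.6, 70.5 and 70.3 CPM after 65 Gy and at 70.7, 76.6 and 126 after 75 Gy. The groups did not overlap, and the log2 fold changes were 1.64 (SE 0.23, adjusted p = 0.000345) and 1.85 (SE 0.23, adjusted p = 8.28e-05). At 6 weeks it stood at 35, 22.6 and 22.4 CPM in the controls, 51.9 and 36.4 after 65 Gy and 34.7, 39.3 and 34.9 after 75 Gy, where the control 3135 lay within the range of the 75 Gy group. Neither difference at 6 weeks passed, at 0.73 (adjusted p = 0.059) and 0.45 (adjusted p = 0.131). Top2a, the DNA topoisomerase that disentangles sister chromatids, stood at 14.8, 17.5 and 18.6 CPM in the controls of 2 weeks, 72.3, 45.7 and 49.7 after 65 Gy and 51.3, 46.6 and 86.4 after 75 Gy. It rose at 2 weeks at both doses (log2 fold changes 1.72 and 1.86). At 6 weeks it was 1.02 higher on the log2 scale after 75 Gy (26.3, 38.2 and 32.6 CPM against 18.1, 14.9 and 14.8; adjusted p = 0.00284), a call that fell just under the fold limit without replicate 3142 (0.89) or without control 3136 or 3137 (0.97). After 65 Gy, at 31.2 and 28.4 CPM, it was 0.90 higher (adjusted p = 0.0232), short of the fold limit, and 1.01 without control 3135.

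All 6 genes of mitotic entry were upregulated at 2 weeks at both doses: Cdk1, the cyclins Ccnb1, Ccnb2 and Ccna2, the phosphatase Cdc25c that activates Cdk1, and Foxm1, a transcription factor of G2 and mitotic genes. Cdk1 was at 3.94, 4.05 and 3.6 CPM in controls of 2 weeks, at 21.4, 11.1 and 11.5 after 65 Gy and at 15.6, 13.3 and 20.4 after 75 Gy. Ccnb1 was at 2.35, 1.91 and 2.33 CPM, then 13, 8.25 and 8.66, and 9.12, 7.49 and 14.7 in the same groups. Every irradiated library exceeded every control by a wide margin, with log2 fold changes at 75 Gy of 2.09 (SE 0.26, adjusted p = 8.21e-05) for Cdk1 and 2.25 (SE 0.28, adjusted p = 8.21e-05) for Ccnb1. Ccna2 rose by 1.73 at 75 Gy and 1.55 at 65 Gy, from 7.61, 6.25 and 6.79 CPM to 22, 17.5 and 28.9 and to 29.1, 13.9 and 17.7. Foxm1 had the smallest fold changes of the 6, from 3.73, 6.51 and 6.27 CPM to 18.1, 10.1 and 10.5 after 65 Gy and 10.3, 10.8 and 16.6 after 75 Gy. Its log2 fold changes of 1.23 (adjusted p = 0.00763) and 1.19 (adjusted p = 0.0044) fell below the limit without the highest library of the group, to 0.91 without 3129 and 0.94 without 3134, and the latter to 0.98 without control 3126.

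At 6 weeks, 5 of the 6 entry genes were upregulated after 75 Gy, and the exception was Foxm1. Cdk1 was at 4.14, 3 and 3.46 CPM in controls, 8.49 and 8.24 after 65 Gy and 6.95, 10.4 and 11.6 after 75 Gy, with no overlap. It was among the 3 genes with the smallest adjusted p at both doses, at 1.45 (SE 0.25, adjusted p = 0.000626) after 75 Gy and 1.24 (SE 0.28, adjusted p = 0.00841) after 65 Gy. Ccnb1 was 1.28 higher after 75 Gy (4.38, 6.78 and 5.61 CPM against 3.02, 1.75 and 2.11) and 1.23 higher after 65 Gy (5.67 and 5.12 CPM). Foxm1 stood at 6.79, 6.56 and 5.51 CPM after 75 Gy beside 4.83, 6.06 and 4.63 in the controls, an overlapping range (log2 fold change 0.28, adjusted p = 0.419), and at 8.61 and 6.76 after 65 Gy (0.57, adjusted p = 0.197). Ccna2 stood at 7.62, 5.97 and 5.32 CPM in controls, 13.5 and 9.61 after 65 Gy and 11.7, 13.8 and 13.3 after 75 Gy. It passed after 75 Gy at 1.04 (adjusted p = 0.00475), but not without replicate 3142 (0.99) or control 3137 (0.93) or 3136 (just under 1). After 65 Gy, where only Cdk1 and Ccnb1 of the 6 were called, Ccna2 was at 0.87, and it passed at 1.03 without control 3135. The 65 Gy calls of both Cdk1 and Ccnb1 were lost without replicate 3138, with adjusted p of 0.0623 and 0.0954, and that of Ccnb1 also without 3140 (0.0526) or control 3136 (0.0538). Cdc25c had the highest fold change at 6 weeks after 75 Gy, 1.80 (SE 0.48, adjusted p = 0.00907), but its levels were low in all libraries, between 0.16 and 2.39 CPM.

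Of the other mitotic kinases, Plk1, Aurka and Melk were upregulated at 2 weeks at both doses, while Nek2, a kinase of centrosome separation, was not. Plk1, which acts at centrosomes, kinetochores and the midbody, stood at 2.15, 3.28 and 2.84 CPM in the controls, 14, 6.79 and 7.37 after 65 Gy and 6.51, 6.75 and 12 after 75 Gy. The libraries did not overlap, and the log2 fold changes were 1.77 (SE 0.29, adjusted p = 0.00144) and 1.61 (SE 0.29, adjusted p = 0.00141). By 6 weeks Plk1 was at 4.52 and 3.52 CPM after 65 Gy and at 3.23, 3.79 and 3.72 after 75 Gy, close above the controls at 3.15, 2.3 and 3.19, and neither difference passed (0.48, adjusted p = 0.344; 0.31, adjusted p = 0.425). Melk was called at 6 weeks as well, at 1.32 after either dose (adjusted p = 0.00143 at 75 Gy and 0.00723 at 65 Gy), with 3.71, 4.23 and 4.82 CPM after 75 Gy and 4.34 and 4.15 after 65 Gy against 1.35, 1.6 and 2.15 in the controls. Its 65 Gy call was lost without replicate 3138 (adjusted p = 0.0556). Nek2 was at 7.12 to 9.89 CPM in controls of 2 weeks and 9.79 to 21.2 after 75 Gy, with a log2 fold change of 0.91 (adjusted p = 0.011), short of the fold limit, and of 0.95 after 65 Gy (adjusted p = 0.0171).

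Among the spindle checkpoint genes, whose products delay anaphase until chromosomes are attached, Ttk and Bub1b were upregulated at 2 weeks at both doses, Mad2l1 at 75 Gy, and Bub1 at neither. Ttk, the kinase at the head of the checkpoint, stood at 0.974, 0.985 and 1.39 CPM in the controls of 2 weeks, 3.42, 2.3 and 2.71 after 65 Gy and 3.29, 3.25 and 4.1 after 75 Gy. At 6 weeks it stood at 0.778, 0.731 and 0.855 CPM in the controls, 1.68 and 1.5 after 65 Gy and 1.71, 2.39 and 2.74 after 75 Gy. After 75 Gy its log2 fold change was 1.66 at 2 weeks (SE 0.22, adjusted p = 0.000151) and 1.53 at 6 weeks (SE 0.22, adjusted p = 0.00018, the smallest of the 54 genes there). After 65 Gy it was 1.01 at 6 weeks (adjusted p = 0.0136), which was lost without replicate 3138 (0.94, adjusted p = 0.105) or control 3136 (0.96, adjusted p = 0.0507). Bub1b, the checkpoint protein BubR1, stood at 8.32, 8.54 and 9.9 CPM in controls, 22.4, 16.1 and 15.3 after 65 Gy and 13.5, 15.6 and 27.2 after 75 Gy. Its calls at 2 weeks were close to the fold limit, at 1.01 and 1.07, and were lost without 3129 (0.81) and without 3134 (0.70), that of 65 Gy also without control 3126 (0.96) or 3127 (0.98). That of 75 Gy was lost, too, when only the groups compared were fitted (1.07, adjusted p = 0.0548). At 6 weeks Bub1b was at 8.4, 7.93 and 7.7 CPM in controls, 12.9 and 12.6 after 65 Gy and 14.5, 15.7 and 12.7 after 75 Gy, with log2 fold changes of 0.67 (adjusted p = 0.0658) and 0.83 (adjusted p = 0.00717). Bub1, a kinase that recruits the other checkpoint proteins, stood at 8.24, 5.18 and 5.99 CPM in controls of 2 weeks, 11.2, 7.9 and 7.93 after 65 Gy and 11.6, 8.08 and 12.1 after 75 Gy, so the groups overlapped (0.71, adjusted p = 0.0168 at 75 Gy and 0.48, adjusted p = 0.132 at 65 Gy). At 6 weeks it stood at 4.82, 3.99 and 4.12 CPM in controls and 5.49 and 4.59 after 65 Gy (0.23, adjusted p = 0.538), and at 5.61, 6.14 and 5.7 after 75 Gy, above all controls (0.43, adjusted p = 0.1).

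The chromosomal passenger complex places the kinase Aurkb at centromeres through Birc5 (survivin), Cdca8 (borealin) and the scaffold Incenp. Aurkb, Birc5 and Cdca8 were upregulated at 2 weeks at both doses, with log2 fold changes from 1.72 to 1.98, while Incenp stayed short of the fold limit at 0.89 and 0.94. Aurkb was at 1.4, 1.84 and 2.29 CPM in controls, 9.77, 5.33 and 5.5 after 65 Gy and 6.48, 5.48 and 9.87 after 75 Gy. Birc5 was at 2.44, 2.72 and 2.75 CPM in controls, 12.2, 7.44 and 6.5 after 65 Gy and 8.65, 7.46 and 13.7 after 75 Gy. The irradiated libraries of both genes lay well clear of the controls. At 6 weeks Birc5 stood at 3.11, 3.23 and 2.41 CPM in controls, 6.35 and 4.78 after 65 Gy and 5.59, 6.33 and 7.36 after 75 Gy, and Aurkb at 2.5, 2.03 and 2.36, then 4.24 and 3.31, and 3.97, 4.55 and 3.91. After 75 Gy, Birc5 (1.14, adjusted p = 0.00311) and Cdca8 (1.28, adjusted p = 0.00276) were upregulated at that time, and Aurkb was not (0.85, adjusted p = 0.0206). Incenp had one of the 3 largest adjusted p at that time, with 13.7, 13.9 and 12.4 CPM after 75 Gy beside 13.6, 12.9 and 11.6 in the controls (0.07, adjusted p = 0.785).

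Of the 10 kinesins, microtubule motors that build the spindle and move chromosomes, 6 were upregulated at 2 weeks after 75 Gy and 7 after 65 Gy. Kif11, the motor that pushes the spindle poles apart, stood at 4.77, 5.57 and 6.71 CPM in controls, 23.2, 14.9 and 16.5 after 65 Gy and 16.5, 15.7 and 26.3 after 75 Gy (1.68 and 1.78). Kif20a, a motor of cytokinesis, stood at 2.94, 3.23 and 3.18 CPM, then 17.3, 8.4 and 10.3, and 12.8, 10.5 and 18.2 (1.94, SE 0.25, adjusted p = 0.000224; 2.15, SE 0.25, adjusted p = 5.36e-05). For both motors every irradiated library of 2 weeks lay above every control. At 6 weeks Kif20a was upregulated after 75 Gy (1.18, adjusted p = 0.00223; 5.84, 6.97 and 5.39 CPM against 3.05, 2.78 and 2.22) and after 65 Gy (1.14, adjusted p = 0.0123; 6.3 and 5.53 CPM), the latter not without replicate 3138 (adjusted p = 0.102). Kif11 was 0.68 higher at 6 weeks after 75 Gy (adjusted p = 0.0217; 9.2, 11 and 10 CPM against 7.57, 5.95 and 5.25) and stood at 10.7 and 10.3 CPM after 65 Gy (0.74, adjusted p = 0.0458), and Kif15 (1.04) and Kif2c (1.17) were the other kinesins called there. Of Kif20a's exon bases, 29.3% overlap Cdc23 on the opposite strand, and whether the counting used strand is not given in the sources used here.

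Kif18a, a motor that dampens chromosome oscillations at the metaphase plate, was the kinesin whose level differed least at 2 weeks. It stood at 5.5, 3.79 and 2.69 CPM in the controls, 3.99, 4.55 and 3.7 after 65 Gy and 6.41, 3.61 and 4.5 after 75 Gy. The groups overlapped fully, with log2 fold changes of 0.03 (SE 0.24, adjusted p = 0.954) and 0.28 (SE 0.24, adjusted p = 0.453), and the sign at 65 Gy turned when control 3128 (-0.19), control 3127 (-0.00) or replicate 3130 (-0.05) was left out. At 6 weeks it stood at 3.99, 3.23 and 3.49 CPM in controls, 4.32 and 4.16 after 65 Gy and 4.4, 6.09 and 4.91 after 75 Gy (0.25, adjusted p = 0.584; 0.52, adjusted p = 0.104). At 2 weeks its relative Kif18b was among the 3 genes with the highest fold changes, at 2.24 after 65 Gy and 2.18 after 75 Gy, whereas at 6 weeks it was called at neither dose (0.81 and 0.44). Kif4, Kif23 and, after 75 Gy, Kif20b passed at 2 weeks on the adjusted p alone, with log2 fold changes from 0.68 to 0.93.

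The kinetochore genes were upregulated at 2 weeks in 9 of 10 cases at each dose, and the exception was Cenpa, the histone H3 variant that marks centromeres. Cenpa stood at 5.32, 6.81 and 5.89 CPM in controls, 12.9, 8.42 and 8.89 after 65 Gy and 8.49, 8.85 and 14.4 after 75 Gy. The groups did not overlap, but the log2 fold changes of 0.74 (adjusted p = 0.0493) and 0.82 (adjusted p = 0.0186) were short of the limit. Ndc80, whose complex with Nuf2, Spc24 and Spc25 binds microtubules, stood at 1.87, 1.84 and 2.71 CPM in controls, 6.57, 4.42 and 5 after 65 Gy and 6.22, 4.24 and 8.11 after 75 Gy (1.32 and 1.53). All 4 genes of that complex were upregulated at 2 weeks, from 1.26 for Spc24 at 65 Gy to 2.01 for Spc25 at 75 Gy. Ska1, which holds kinetochores on shortening microtubules, had the highest fold change of the 54 genes after 75 Gy at 2.54 (SE 0.45, adjusted p = 0.00122), from low levels of 0.304, 0.15 and 0.553 CPM to 2.17, 1.36 and 2.43. After 65 Gy it stood at 2.21, 1.21 and 1.51 CPM. Cenpf, a large protein of the outer kinetochore, had one of the smallest adjusted p at both doses, at 1.88 (SE 0.22, adjusted p = 5.03e-05) after 75 Gy and 1.85 (SE 0.22, adjusted p = 0.000121) after 65 Gy. It stood at 3.33, 4.73 and 4.84 CPM in controls, 17.1, 13.7 and 15.9 after 65 Gy and 12.4, 14 and 21.2 after 75 Gy. Cenpe, a kinetochore motor, was 1.81 higher after 65 Gy (SE 0.23, adjusted p = 0.000179), with 15.5, 11.9 and 13.2 CPM against 3.59, 4.24 and 3.74.

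At 6 weeks, 3 of the 10 kinetochore genes were upregulated after 75 Gy (Nuf2, Spc25 and Ska3) and 2 after 65 Gy (Nuf2 and Spc25). Spc25 stood at 1.1, 1.25 and 1.64 CPM in controls, 3.31 and 3.31 after 65 Gy and 3.31, 4.6 and 3.98 after 75 Gy. Its log2 fold changes were 1.57 (SE 0.26, adjusted p = 0.000358) and, with the smallest adjusted p of the 54 genes at 65 Gy, 1.32 (SE 0.28, adjusted p = 0.00642), the latter just lost without replicate 3138 (adjusted p = 0.0526). Ndc80 stood at 2.92, 1.8 and 1.82 CPM in controls, 3.74 and 3.58 after 65 Gy and 3.2, 5.13 and 4.29 after 75 Gy. It was 0.95 higher after 75 Gy (adjusted p = 0.0137) and 0.75 after 65 Gy (adjusted p = 0.106), and the 75 Gy value passed the fold limit without control 3135 (1.22) or replicate 3141 (1.10). Ska1 overlapped with the controls, with 0.722, 1.03 and 0.876 CPM after 75 Gy and 1.07 and 0.734 after 65 Gy beside 0.778, 0.624 and 0.244 (0.67, adjusted p = 0.245; 0.71, adjusted p = 0.343). So did Cenpa, with 7.15, 8.6 and 7.03 CPM after 75 Gy and 8.11 and 7.27 after 65 Gy beside 7.74, 4.58 and 6.23 (0.30, adjusted p = 0.332; 0.31, adjusted p = 0.445).

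The genes that hold sister chromatids together or release them were upregulated at 2 weeks in 4 of 5 cases at each dose. Espl1, separase, the protease that cuts cohesin at anaphase, stood at 3.49, 4.35 and 4.71 CPM in controls, 17.4, 10.1 and 11.5 after 65 Gy and 8.3, 11.4 and 18 after 75 Gy (1.63, SE 0.25, adjusted p = 0.00086; 1.58, SE 0.25, adjusted p = 0.000614). Pttg1, securin, its inhibitor, was the exception among these 5. At 2 weeks it was also the only gene of the 54 with a negative log2 fold change, at both doses. It stood at 34, 26.9 and 26.7 CPM in controls of 2 weeks, 25.4, 25.3 and 24.6 after 65 Gy and 29.6, 24.7 and 20.6 after 75 Gy, with a log2 fold change of -0.22 at either dose (SE 0.13, adjusted p = 0.321 and 0.235). At 6 weeks it stood at 27.9, 31.1 and 28.2 CPM in controls, 27 and 27.9 after 65 Gy and 29.4, 26 and 33.1 after 75 Gy (-0.08, adjusted p = 0.759; 0.02, adjusted p = 0.914). The sign of the last value turned to -0.01 without control 3135 and to -0.05 without replicate 3143. Per kilobase of exon, Pttg1 had the highest level of the 54 genes in all 6 groups, at 12.5 to 14.8 CPM per kilobase, where the median of the 54 was 0.74 in the controls and 2.06 after 75 Gy at 2 weeks. No model tested the difference between Espl1 and its inhibitor. At 6 weeks Espl1 stood at 4.62, 4.06 and 4.07 CPM in controls, 7.87 and 6.95 after 65 Gy (0.80, adjusted p = 0.0638) and 8.58, 9.66 and 7.12 after 75 Gy. It was 0.99 higher after 75 Gy (adjusted p = 0.00693), just short of the fold limit, and passed it without control 3135 (1.06) or replicate 3143 (1.12).

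The 3 genes tied to the APC/C, its activator Cdc20, its ubiquitin-conjugating enzyme Ube2c and Cdca3, were all upregulated at 2 weeks at both doses, by 1.64 to 2.00 on the log2 scale. Cdc20 stood at 3.02, 4.86 and 5.55 CPM in controls, 23.2, 10 and 11.6 after 65 Gy and 13.3, 11 and 17.6 after 75 Gy. Ube2c stood at 2.54, 3.19 and 2.78 CPM, then 14.9, 6.64 and 9.62, and 10.2, 9.03 and 14.9. At 6 weeks none of the 3 was called at either dose. Ube2c stood at 3.32, 2.55 and 2.09 CPM in controls, 5.05 and 3.84 after 65 Gy and 4.33, 4.16 and 5.02 after 75 Gy (0.74, adjusted p = 0.107; 0.76, adjusted p = 0.0388). Cdc20 was at 7.62 and 5.51 CPM after 65 Gy and 6.68, 6.05 and 6.41 after 75 Gy beside 5.76, 5.15 and 4.47 in controls (0.36, adjusted p = 0.503; 0.31, adjusted p = 0.422). Ube2c shares 22.8% of its exon bases with Tnnc2, a muscle troponin gene on the opposite strand.

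The spindle proteins Tpx2, which activates Aurka, and Hmmr, which links microtubules at the poles, were upregulated at 2 weeks at both doses. Hmmr had the smallest adjusted p of the 54 genes after 75 Gy, with 10.6, 8.01 and 13 CPM against 2.62, 2.51 and 2.06 (2.14, SE 0.25, adjusted p = 4.93e-05), and stood at 13.6, 7.64 and 9.19 after 65 Gy (2.08, SE 0.25, adjusted p = 0.000122). It was also upregulated at 6 weeks, by 1.25 after 75 Gy (adjusted p = 0.00128) and 1.10 after 65 Gy (adjusted p = 0.0133). Of the 4 genes of cytokinesis, Prc1, which bundles microtubules of the central spindle, Ect2 and Racgap1 were upregulated at 2 weeks at both doses, and Anln, anillin of the contractile ring, was not (0.97 and 0.93). Prc1 stood at 7.83, 6.47 and 7.48 CPM in controls, 29.1, 15.8 and 15.9 after 65 Gy and 20.1, 16.9 and 28 after 75 Gy (1.48 and 1.58). At 6 weeks 0 of the 4 were called at either dose, and Prc1 was 0.78 higher after 75 Gy (adjusted p = 0.0164; 9.28, 12.7 and 11.8 CPM against 7.25, 6.53 and 5.8), with 10.9 and 8.96 CPM after 65 Gy (0.60, adjusted p = 0.129).

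Whether the 10 Gy between the doses made a difference was tested directly. Between 75 Gy and 65 Gy, edgeR called 0 of the 54 genes at 2 weeks and likewise 0 at 6 weeks, as it did 0% of all genes. At either time 0 of the 54 had an unadjusted p under 0.05 (7.12% of all genes at 2 weeks and 6.49% at 6 weeks), and edgeR's exact test and DESeq2 called 0. The smallest adjusted p were 0.709 and 0.735, and the median log2 differences 0.07 and 0.10. For Mki67 the difference at 2 weeks was 0.21, with a 95% interval from -0.26 to 0.68, and for Cdk1 0.16, from -0.35 to 0.68. The interval lay within 1 on the log2 scale, in either direction, for 52 genes at 2 weeks and 47 at 6 weeks, but within 0.5 for only 5 and 4. Differences of 2-fold size (1 on the log2 scale) were thus outside most intervals, and smaller ones were not.

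The non-irradiated lungs of the 2 times were compared in the same way. Of the 54 genes, 0 were called between controls of 6 and 2 weeks (0.24% of all genes called higher and 0.336% lower), 3 had an unadjusted p under 0.05 (15.5% of all genes), edgeR's exact test and DESeq2 also called 0, and the smallest adjusted p was 0.161. The 3 were Nek2, 0.70 higher at 6 weeks (95% interval 0.20 to 1.19), Bub1, at a difference of -0.59 (-1.01 to -0.17), and Ttk, at -0.50 (-0.99 to -0.02).

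The change of the effect with time was tested as the fold change at 6 weeks minus that at 2 weeks, each against its own controls. For 75 Gy, 52 of the 54 differences were negative, with a median of -0.76 on the log2 scale, and 28 had an unadjusted p under 0.05, all negative, beside 8.8% of all genes on that side. With adjustment over all genes edgeR called 0 of them (0.0408% of all genes called lower and 0.213% higher), with a smallest adjusted p of 0.0807. DESeq2 called 8: Mki67, Plk1, Kif11, Kif18b, Cenpf, Knl1, Cdc20 and Ube2c, which were named after their values were seen. The share of all genes that DESeq2 called is not given here, so nothing is read from the count of 8. The edgeR estimates were -1.40 for Mki67 (95% interval -2.07 to -0.73), -1.32 for Cdc20 (-2.20 to -0.45) and -1.30 for Plk1 (-2.17 to -0.42). Those of Ttk, at -0.14 (-0.80 to 0.53), and Cdk1, at -0.64 (-1.39 to 0.11), had intervals that held 0. Without replicate 3132 edgeR called 2 of the 54, and the share of all genes in that fit is not given here either. For 65 Gy, 52 differences were negative with a median of -0.80, 28 had an unadjusted p under 0.05, all negative (4.37% of all genes on that side), and edgeR and DESeq2 both called 0 (edgeR called 0% of all genes lower and 0.0136% higher), with smallest adjusted p of 0.359 and 0.0551.

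The other cell cycle genes give the setting of these changes. At 2 weeks after 75 Gy, 8 of 23 further kinetochore genes, 2 of 8 condensin genes, 7 of 23 genes of DNA replication and 5 of 14 genes of G1 entry were upregulated and 0 of each were downregulated, with median log2 fold changes of 0.73, 0.75, 0.75 and 0.40. After 65 Gy the counts were 8, 2, 6 and 5. Rrm2, a subunit of ribonucleotide reductase, rose by 1.86 at 75 Gy (adjusted p = 9.38e-05) and Mcm10, a factor of replication origins, by 1.44 (adjusted p = 0.000695). Ncapg2 (1.63, adjusted p = 7.38e-05) and Ncapg (1.73, adjusted p = 0.00017) were the condensin subunits that rose, and Ccne1, cyclin E1, rose by 2.48 (adjusted p = 0.000246) and Ccnd1, cyclin D1, by 2-fold (adjusted p = 0.000126). Of the further kinetochore genes, Cenpk rose by 1.56 (adjusted p = 0.00089), and Pmf1 passed on the adjusted p alone at 0.85 (adjusted p = 0.00027). Of 15 core subunits of the APC/C and 12 genes of the DREAM and MuvB complexes, edgeR called 0 at either dose or time, with medians at 75 Gy and 2 weeks of 0.04 and 0.03. An unadjusted p under 0.05 was met there by 3 APC/C and 6 DREAM and MuvB genes, and other tools were not run on these lists. The share of all genes at that limit is not given here, so nothing is read from these 2 counts. The members with the smallest p were Anapc5 (-0.34) and Cdc16 (0.23), and Tfdp1 (0.45) and Lin52 (-0.38). At 6 weeks after 75 Gy the counts were 3 of 23 kinetochore, 1 of 8 condensin, 5 of 23 replication and 2 of 14 G1 genes, and after 65 Gy 3, 1, 2 and 1. Over all genes tested, 7.28% and 4.34% were upregulated in these comparisons, and 5.67% and 3.47% at 2 weeks, and nothing is read from counts of 1 or 2 genes.

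**Figure D4:**
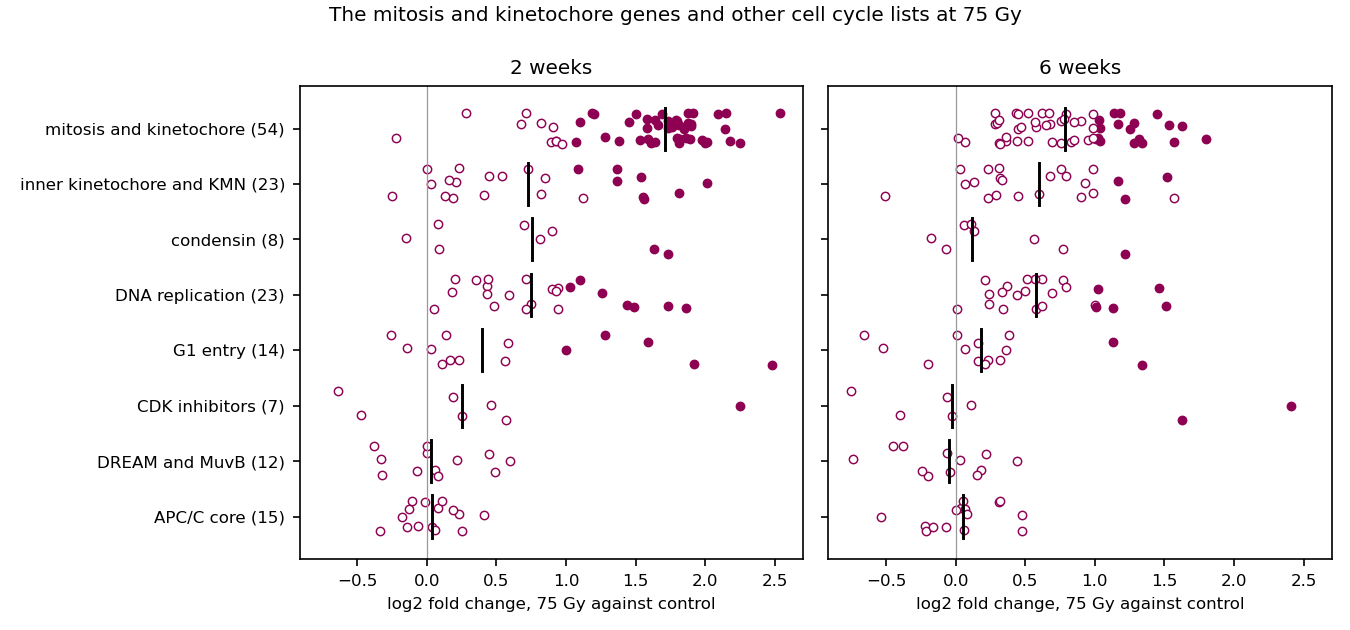
Log2 fold change after 75 Gy against control at 2 weeks (left) and 6 weeks (right) for the 54 mitosis and kinetochore genes and 7 other cell cycle lists, with the number of genes in brackets. Filled points passed the adjusted p and fold limits, open points did not, and bars mark medians; the median of the 54 genes is at 1.71 at 2 weeks and 0.79 at 6 weeks, and those of the DREAM and MuvB and APC/C core lists lie near 0.

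Cdkn1a, the p21 inhibitor of cyclin-dependent kinases and a p53 target, was high in the same lungs. It stood at 118, 88.1 and 94.1 CPM in controls of 2 weeks, 416, 471 and 499 after 65 Gy and 519, 412 and 497 after 75 Gy, and at 41, 53.9 and 51.2 CPM in controls of 6 weeks, 191 and 259 after 65 Gy and 226, 259 and 289 after 75 Gy. The log2 fold changes after 75 Gy were 2.25 at 2 weeks (SE 0.16, adjusted p = 6.51e-07) and 2.41 at 6 weeks (SE 0.16, adjusted p = 2.33e-07), where the medians of the 54 mitotic genes were 1.71 and 0.79. The levels themselves were lower at 6 weeks in irradiated lungs and in controls, and between the controls Cdkn1a was downregulated at 6 weeks (-1.04, adjusted p = 0.00381). Of the 7 inhibitors, Cdkn2a was the other one called, at 6 weeks after 75 Gy (1.63, adjusted p = 0.00429; chosen after its values were seen), at levels of 0.171 to 2.14 CPM over all libraries. Cdkn1b was 0.47 lower on the log2 scale at 75 Gy and 2 weeks (log2 fold change -0.47, adjusted p = 0.00114), within the fold limit.

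The 54 genes also moved together between libraries of one group. Library 3129 was the highest of the 65 Gy group of 2 weeks in 52 of the 54 genes (37.6% of all genes), library 3134 the highest of the 75 Gy group in 49 (37.6%), and control 3135 the highest of the controls of 6 weeks in 42 (35%). The summed level of 10 T cell markers, at 88.5 to 99.3 CPM in controls of 2 weeks, was 154 in library 3129 against 103 to 104 in the others of its group, and 236 in library 3134 against 99.5 and 129. Control 3135 likewise had 122 CPM against 81.4 and 85.8. In the controls of 2 weeks library 3126 had the highest sum of T cell markers (99.3), but 3128 was highest for 27 of the 54 genes (33% of all genes). Library 3126 was the lowest for 26 of the 54, near its share of all genes (45%). Without library 3129 the median log2 fold change after 65 Gy was 1.33 with 40 genes called, and without 3134 that after 75 Gy was 1.49 with 42 called. The share of all genes called in these fits is not given here. Sums of further marker lists also set these libraries apart. The B cell sum was the highest of its group in library 3129 (225 CPM) and the lowest in 3134 (97.6 CPM). In control 3135 it was 559 CPM against 323 and 309. The adipocyte sum was 179 CPM in library 3129 against 16.1 and 17.4 in the others of its group. The capillary endothelial sum was 1510 CPM in library 3134 against 2910 and 2550. The part of T cells, or of any other cells, in the levels of the mitotic genes was not tested.

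**Figure D5:**
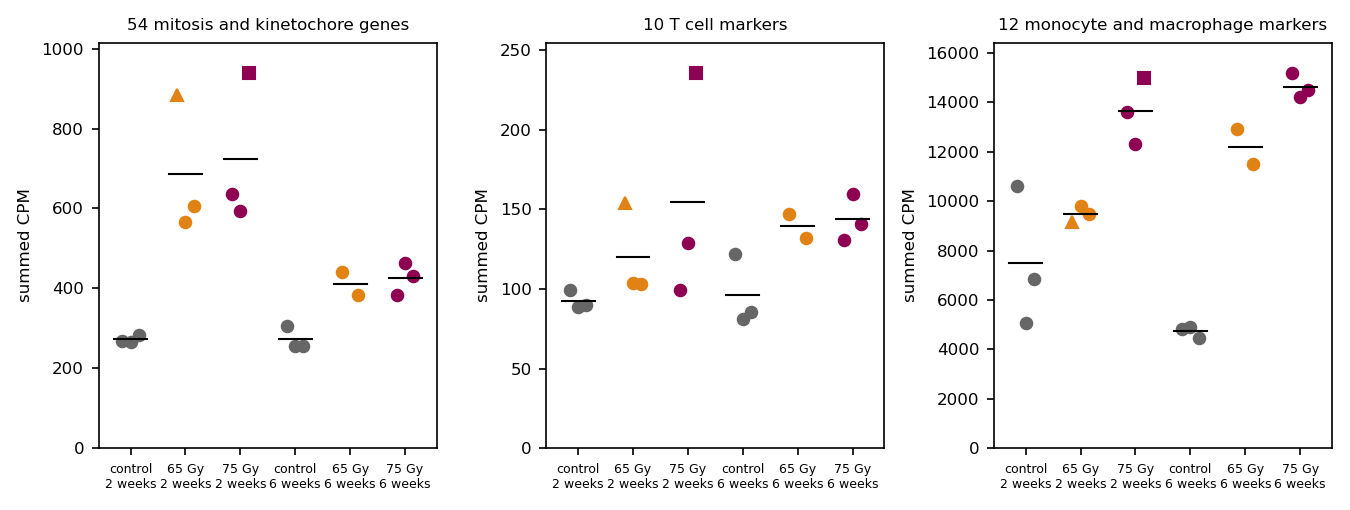
Summed CPM of the 54 mitosis and kinetochore genes (left), 10 T cell markers (middle) and 12 monocyte and macrophage markers (right) in each library, by group, with bars at group means. Library 3129 (triangle) and library 3134 (square) are highest of their groups for the 54 genes and the T cell markers. For the monocyte and macrophage markers 3129 is the lowest of its group and 3134 the highest.

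Markers of other cells moved with radiation too. The 12 monocyte and macrophage markers summed to 5070 to 10600 CPM in controls of 2 weeks, 9170 to 9790 after 65 Gy and 12300 to 15000 after 75 Gy, and at 6 weeks to 4450 to 4920, 11500 to 12900 and 14200 to 15200. Control 3126 stood apart, at 10600 CPM against 5070 and 6840, and lay above every 65 Gy-irradiated library of 2 weeks. At 75 Gy 8 of the 12 were upregulated at 2 weeks and 10 at 6 weeks, at 65 Gy 7 and 10, led by the complement gene C1qb (3.42 at 75 Gy and 2 weeks, adjusted p = 9.77e-07) and Cd68 (2.48, adjusted p = 5.15e-06). In the irradiated groups the 6-week ranges of these sums reached at least as high as those of 2 weeks, while the sums of the 54 genes were lower in each 6-week library. Of 10 T cell markers, edgeR called 1 and 0 upregulated at 2 weeks at 75 and 65 Gy, and 3 and 2 at 6 weeks. At 2 weeks 8 and 2 had an unadjusted p under 0.05, a limit for which no share of all genes is given here. Over all genes tested, 5.67% and 3.47% were upregulated at 2 weeks after 75 and 65 Gy, and 7.28% and 4.34% at 6 weeks. The 10 capillary endothelial markers summed to 3810 to 4430 CPM in controls of 2 weeks, 2600 to 2660 after 65 Gy and 1510 to 2910 after 75 Gy. At each dose 4 were downregulated (0.88% of all genes at 65 Gy and 2.07% at 75 Gy). At 6 weeks they summed to 4130 to 4220, 2210 to 2390 and 1690 to 2030 CPM. Of the 10, 1 was then downregulated after 65 Gy (0.943% of all genes) and 6 after 75 Gy (3.13%). The list of immature neutrophils summed to 434 to 1100 CPM in controls of 2 weeks, 1270 to 1420 after 65 Gy and 1250 to 1510 after 75 Gy, and at 6 weeks to 368 to 589, 1780 to 2380 and 1700 to 2060. Control 3126 again stood apart, at 1100 CPM against 434 and 456. The median log2 fold change of the list was nonetheless negative. It was -1.31 and -1.77 at 2 weeks after 75 and 65 Gy, and -0.66 and -0.56 at 6 weeks. Of its 11 tested genes, Lcn2 was upregulated at both doses and times (2.81 at 75 Gy and 2 weeks) and Chil3 at 6 weeks (1.75 at 75 Gy), while Ngp (-4.53) and Camp (-4.88) were downregulated at 6 weeks after 75 Gy; Chil3 and Camp were named after their values were seen. Its precursor genes Elane and Mpo were at most 1.04 and 5.22 CPM and listed at 0 in some libraries. The erythroid list ranged from 1550 to 7080 CPM over all libraries, with Klf1 of its precursors at most 0.731, and the thymocyte list from 19.2 to 45.9 CPM, with Rag1 at most 0.86. The part of these cells in the levels of the 54 genes was not tested.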

How the data were processed

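RNA of irradiated lung lesions and non-irradiated lungs was sequenced in pairs from stranded mRNA libraries. The authors used Trimmomatic for trimming, HISAT2 for alignment to GRCm38.p6 and StringTie for assembly, and deposited whole-number read counts per gene, without normalization. The step from StringTie to counts, and whether it used strand, are not given in the sources used here. The labels do not say that each library is 1 mouse, so p-values measure the spread between libraries.

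One edgeR model (4.0.16, in R 4.3.3) took in the 17 libraries, a coefficient for each group, TMM factors and filterByExpr (minimum count 10, minimum total 15), which kept 22052 of 45777 genes. Contrasts were tested two-sided by quasi-likelihood and adjusted over all genes by Benjamini-Hochberg. Calls needed an adjusted p no higher than 0.05 and a log2 fold change of 1 or more in either direction. Values of single libraries are CPM with TMM factors, and SE belongs to the log2 fold change. The script was tested on simulated data. Alternatives were other filters, other scaling factors (RLE, upper quartile), the exact test of edgeR, DESeq2 (1.42.0), only the groups compared, the adjusted p alone and leaving out each library. Exon lengths and overlaps came from GENCODE vM21, promoters from RefSeq.

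The members, lists, thresholds and rules were chosen with earlier results of these data known. Values per library are given for 21 genes picked for their roles, for the 3 genes with the smallest and the 3 with the largest adjusted p in each comparison of a dose with control, and for those with the opposite sign. Of each other list, the 2 genes with the smallest p at 75 Gy and 2 weeks are named, apart from 1 that is not reported here.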

Additional observations from a re-analysis of the deposited data

How the results depend on the processing

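Other filters, scaling factors and tests changed the counts of called genes little. They lay from 41 to 44 at 2 weeks after 75 Gy, 42 to 44 after 65 Gy, 17 to 21 at 6 weeks after 75 Gy and 11 to 12 after 65 Gy under the alternatives other than the adjusted p alone and leaving out a library. On the adjusted p alone the counts at 6 weeks were 34 after 75 Gy and 19 after 65 Gy, by construction. DESeq2 called 8 genes for the change of the 75 Gy effect with time where edgeR called 0. The share of all genes that DESeq2 called is not given here, and the cause was not tested. With 1 library left out the counts ranged from 42 to 48 and from 40 to 46 at 2 weeks after 75 and 65 Gy, from 13 to 22 and from 0 to 16 at 6 weeks, and from 0 to 2 for the change of the 75 Gy effect; the other comparisons stayed at 0. The shares of all genes called in the alternative fits of this paragraph are not given here. The counts thus do not set the 54 genes apart from all genes. With 1 library left out, the median log2 fold changes ranged from 1.49 to 1.84, 1.33 to 1.76, 0.72 to 0.90 and 0.58 to 0.89. With 1 library left in the 65 Gy group of 6 weeks, it was assumed to vary like the other groups. Of 1343 values of named genes, 1294 kept direction and side of the threshold, 23 lost and 21 gained the call, and 5 changed sign: Pttg1 at 6 weeks after 75 Gy (-0.01 and -0.05, range -0.05 to 0.11) and Kif18a at 2 weeks after 65 Gy (-0.00, -0.19 and -0.05, range -0.19 to 0.34). A minimum of 10 counts in every library left 52 of the 54 genes. The exact test was not run for the changes of effects with time. Depth limits Cdc25c and Ska1, with as few as 9 and 7 counts in a library. No paired analysis was possible because no replicate number is shared between groups.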

Other observations

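The CHR motif was also described in tested genes outside the 54. In the 150 bases from 100 before to 50 after the start, 1181 of 15719 such genes held it, and 113 of them (9.57%) were upregulated at 2 weeks after 75 Gy, beside 772 of the 14538 without it (5.31%). In the 300 bases the shares were closer, at 7.23% and 5.28%. In the 150 bases the shares after 65 Gy at 2 weeks were 6.1% and 3.26%, and in 300 bases 4.44% and 3.26%. At 6 weeks they were, in 150 bases, 8.55% and 6.79% after 75 Gy and 5.5% and 4.16% after 65 Gy, and in 300 bases 8.01% and 6.68%, and 4.87% and 4.13%. Among the 54 genes, 29 of the 35 with the motif in 300 bases and 6 of the 9 without it were upregulated at 2 weeks after 75 Gy, and 30 and 5 after 65 Gy; at 6 weeks the counts were 10 and 4 after 75 Gy and 6 and 3 after 65 Gy. These shares are descriptions without a test.

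Markers of other cells were read at 75 Gy and 2 weeks, with up to 2 genes of smallest p from each list. The B cell gene Cr2 was lower (-1.19, adjusted p = 0.00593), as were the capillary genes Tek (-1.49, adjusted p = 0.000226) and Gpihbp1 (-1.06, adjusted p = 0.00222). Of macrophage genes of the alveoli, Marco was higher (2.62, adjusted p = 3.51e-05) and Krt79 lower (-1.43, adjusted p = 0.00269), and of the neutrophil list Lcn2 was higher (2.81, adjusted p = 7.57e-07) while Ngp did not pass (-2.25, adjusted p = 0.116). Mcidas, a regulator of ciliated cells, was higher at 2 weeks (1.63, adjusted p = 0.00317) and lower at 6 weeks (-2.66, adjusted p = 0.00025), and Ccno did not pass at 2 weeks (0.81). The T cell gene Cd5 was higher (1.37, adjusted p = 0.0042), Cidec (-1.69, adjusted p = 0.00184) of adipocytes and Actc1 (-1.49, adjusted p = 0.0138) of heart muscle were lower, and Cd3g (0.87), Cd4 (0.88), Arpp21 (1.38), Adipoq (-2.93), Tnni3 (-1.01), Epb42 (0.66), Hba-a1 (-0.25), Abca3 (-0.31), Etv5 (-0.30), Pdpn (0.56), Cav1 (-0.77), Pdgfra (-0.80) and Dcn (-0.78) did not pass both limits.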
